A study of Sus scrofa with 15 samples.

Results

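Backfat of 15 castrated male Iberian pigs was profiled with 1 array per animal. Probe sets of 4 genes followed the skeletal muscle gene MYL1 from animal to animal: ACTG1, MYOZ1, TNNT3 and TNNI2. MYL1 encodes a light chain of the myosin of fast muscle fibres. The members were selected on measured values, namely a Pearson correlation of 0.80 or more over the 15 animals with the MYL1 probe set. Of 1454 other probe sets with a single gene symbol, 10 reached it (0.688%). Among these 10 were 6 that belong to well-known muscle genes left out by the rule (TNNC2, CKM, SLN, MYLPF, ENO3 and MYH2), and the remaining 4, each of a different gene, are described here. They are 4 of 1260 genes with a single-symbol probe set in the table, and each had only 1 member probe set. Their correlations and slopes with MYL1 are therefore a description and carry no test. ACTG1 has a second single-symbol probe set, which did not follow MYL1 over the 15 animals (r = -0.109). Values given for ACTG1 are those of its member probe set unless stated otherwise.

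The animals fell into 7 on the control diet, which the labels call the standard diet, and 8 on the high-oleic diet, a feed enriched in oleic acid. All were castrated males of the Iberian breed, taken onto the diets at 28 kg live weight and kept on them for 24 weeks with slaughter planned at 110 kg, and age was not used here. Rations were matched for energy and protein by giving control animals more feed. Actual live weights were 112 to 133 kg on the control diet and 104.5 to 116 kg on the high-oleic diet. Tissue came from the inner backfat layer, taken over the last rib. From a list of 15 adipocyte markers, the 2 present in the table, LEP and PNPLA2, had a summed signal of 10.58 to 12.61 on the log2 scale. No other tissue was there to compare with, so this does not test what the tissue was. Values are log2 signals of a probe set, a group of short probes for 1 transcript, so that 1 unit is a 2-fold change. Signals of different probe sets are not comparable as levels.

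Skeletal muscle contracts when myosin thick filaments pull on actin thin filaments that are anchored at the Z disc. Calcium sets this off through the troponin complex on the thin filament, in which troponin C binds calcium, troponin I holds back the myosin contact and troponin T ties the complex to tropomyosin. Fast and slow fibres use different genes for many of these parts. These repeating contractile units, the sarcomeres, belong to striated muscle and not to adipocytes.

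By role, 2 of the 4 members are thin filament genes of fast fibres. TNNI2 encodes fast troponin I and TNNT3 fast troponin T. MYOZ1, or calsarcin-2, is a Z disc protein of fast fibres that binds calcineurin and alpha-actinin. ACTG1 encodes cytoplasmic gamma actin, a cytoskeletal actin of nearly all cells and not a sarcomere gene by name. TNNI2 and TNNT3 lie close together on chromosome 2 of the Sscrofa11.1 annotation, with 2 protein-coding genes between them.

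MYL1 itself ran from 2.21 to 10.49 over the 15 animals, with a median of 6.94. It was highest in control animal 2 at 10.49, followed by high-oleic animal 7 at 9.88 and control animal 5 at 8.99. It was lowest in control animal 1 at 2.21, high-oleic animal 3 at 2.27 and control animal 7 at 2.70. High and low animals were thus found on both diets.

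TNNT3 had a lowest signal of 1.73, a median of 3.02 and a highest of 6.50 among control animals. On the high-oleic diet the lowest was 2.42, the median 3.02 and the highest 6.70. The groups overlapped over nearly their whole range, and the 3 highest animals were again high-oleic animal 7 at 6.70, control animal 2 at 6.50 and control animal 5 at 4.62. The next animal, control animal 6, stood at 3.38.

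TNNI2 ran from 3.10 through a median of 3.63 to 6.96 on the control diet. On the high-oleic diet it ran from 3.19 through 3.62 to 7.11. The groups overlapped, with high-oleic animal 7 at 7.11, control animal 2 at 6.96 and control animal 5 at 5.53 above the other animals. In 10 of the 15 animals TNNI2 lay within 1 log2 unit of its lowest value.

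MYOZ1 ran from 2.64 through a median of 4.04 to 6.98 on the control diet and from 2.73 through 3.28 to 6.07 on the high-oleic diet. The groups overlapped, and the same animals led, control animal 2 at 6.98, high-oleic animal 7 at 6.07 and control animal 5 at 5.41. In 9 of the 15 animals MYOZ1 lay within 1 log2 unit of its lowest value.

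The ACTG1 member probe set ran from 6.35 through a median of 9.20 to 11.60 on the control diet and from 4.93 through 8.86 to 11.49 on the high-oleic diet. The groups overlapped here too. Control animal 2 at 11.60, high-oleic animal 7 at 11.49 and control animal 5 at 10.24 were highest and high-oleic animal 3 at 4.93 lowest. In contrast to TNNI2 and MYOZ1, its other animals were spread over the range, and only the lowest animal itself lay within 1 log2 unit of the minimum. The lowest signal in the whole table was 1.49, so the lowest animals of MYL1, TNNT3, MYOZ1 and TNNI2 lay near the bottom of the scale, and no fold from lowest to highest is given.

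**Figure D1:**
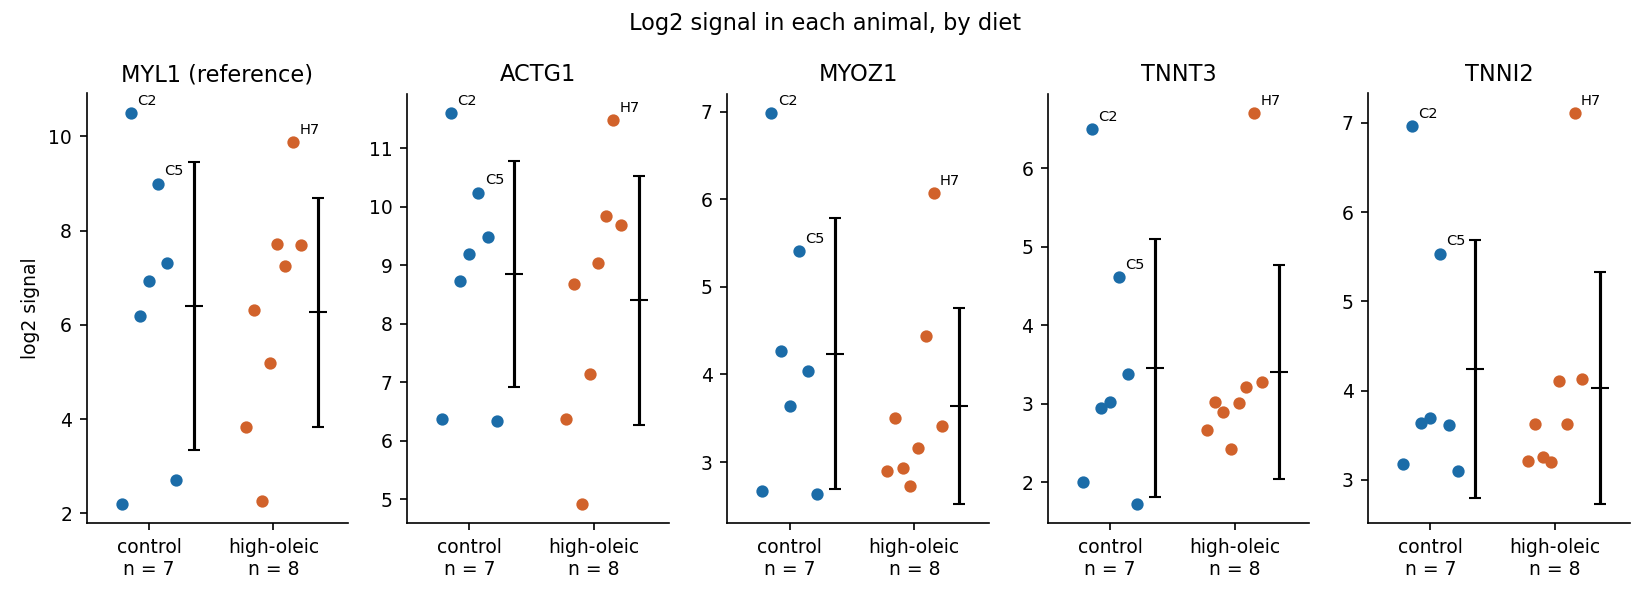
Log2 signal (vertical axis, own scale per panel) of MYL1 and the 4 members in each animal by diet; points are animals, and the bar beside them is the mean with 1 SD. Control animals 2 and 5 (C2, C5) and high-oleic animal 7 (H7) stand highest for each member, and the diets overlap in every panel.

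The correlation with MYL1, which chose the members, was 0.974 for ACTG1, 0.837 for MYOZ1, 0.819 for TNNT3 and 0.808 for TNNI2. Spearman's rho was 0.939, 0.811, 0.904 and 0.904 in that order. Just inside the threshold were TNNI2 at 0.808 and TNNT3 at 0.819. Just outside it was NEB at 0.7998, a giant thin filament protein that the rule leaves out in any case. Among genes the rule does not leave out, the next were PGAM2, the muscle phosphoglycerate mutase, at 0.775, the second probe set of the tropomyosin gene TPM2 at 0.768 and CRYAB, a small heat shock protein of the Z disc, at 0.746. TNNI2 and TNNT3 were thus close in correlation to genes that are not members.

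The members did not follow MYL1 with the same slope. On the log2 scale a slope of 1 means that signal changes in proportion to MYL1. ACTG1 had a slope of 0.73 (SE 0.05, n = 15), near the left-out genes SLN at 0.70 and MYH2 at 0.76. TNNT3 had 0.45 (SE 0.09), MYOZ1 0.42 (SE 0.08) and TNNI2 0.41 (SE 0.08), near NEB at 0.39. The left-out genes TNNC2, fast troponin C, and MYLPF, the regulatory myosin light chain of fast fibres, were steeper at 0.86 each. These slopes belong to different probe sets, and their differences were not tested. TNNI2, TNNT3 and MYOZ1 had low signals in most animals, and whether this bears on their slopes was not tested. Within the diets the slope of ACTG1 was 0.63 (SE 0.02) in control and 0.86 (SE 0.06) in high-oleic animals. For TNNI2 it was 0.40 (SE 0.11) and 0.41 (SE 0.14). MYOZ1 had 0.47 (SE 0.08) in control and 0.34 (SE 0.12) in high-oleic animals, and TNNT3 0.50 (SE 0.09) and 0.38 (SE 0.17). The differences in slope between diets were not tested.

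For the fast fibre members most of the range lay in the 3 animals with the highest MYL1, and the points departed from a straight line. TNNT3 exceeded its fitted line by 1.68 in high-oleic animal 7 and by 1.20 in control animal 2. In high-oleic animals 5 and 8, with MYL1 at 7.70 and 7.69, TNNT3 lay at -1.03 and -0.76 from that line. MYOZ1 lay at 1.32 in control animal 2 and at -1.34 in high-oleic animal 5. Without control animals 2 and 5 and high-oleic animal 7, a choice made after seeing the data, the slope was 0.21 for MYOZ1 (SE 0.07), 0.19 for TNNT3 (SE 0.05) and 0.14 for TNNI2 (SE 0.03). The slope of ACTG1 was 0.73 (SE 0.07) without them, as with them.

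**Figure D2:**
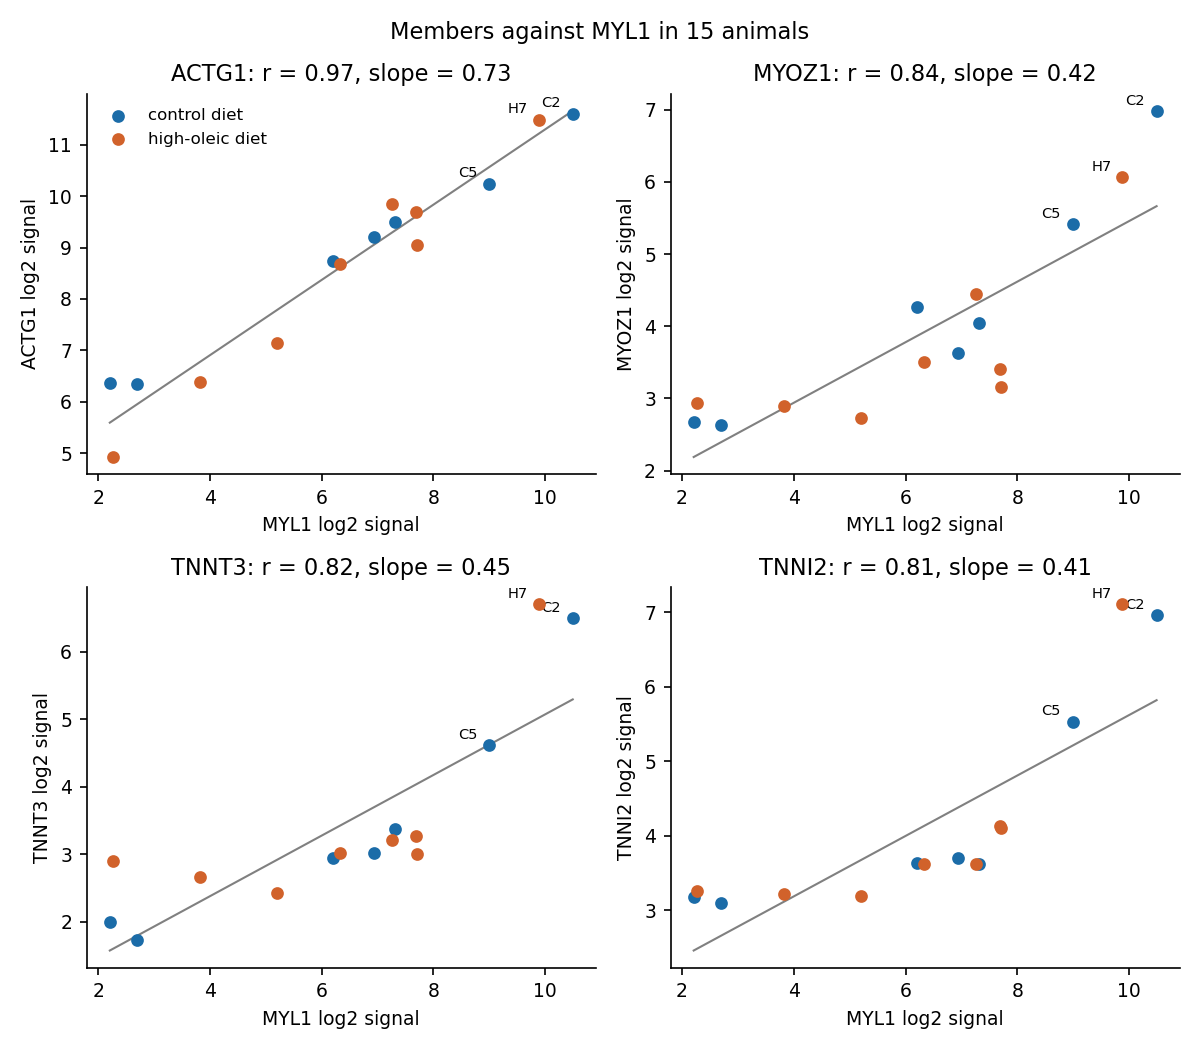
Log2 signal of each member (vertical axis) against that of MYL1 (horizontal axis); points are the 15 animals, coloured by diet, and the grey line is the least squares fit. ACTG1 follows the line over the whole range, whereas outside the 3 labelled animals (C2, C5, H7) TNNT3 reaches 3.38 and TNNI2 4.13 at most.

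The correlations without these 3 animals were 0.956 for ACTG1, 0.862 for TNNI2, 0.788 for TNNT3 and 0.707 for MYOZ1. By the same rule over the 12 remaining animals, 12 probe sets would have been members, 2 of them shared with the list described here (ACTG1 and TNNI2). Without control animal 2 alone, TNNT3 and TNNI2 were below the threshold, and LEP, STX10 and TCF25 were above it. TNNI2 was also below it without control animal 5 or without high-oleic animal 7, and TNNT3 without control animal 7. ACTG1 and MYOZ1 stayed members with any 1 animal left out, the correlation of ACTG1 lying between 0.969 and 0.980. For MYOZ1 this range was 0.807 to 0.880, for TNNT3 0.773 to 0.863 and for TNNI2 0.758 to 0.829.

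**Figure D3:**
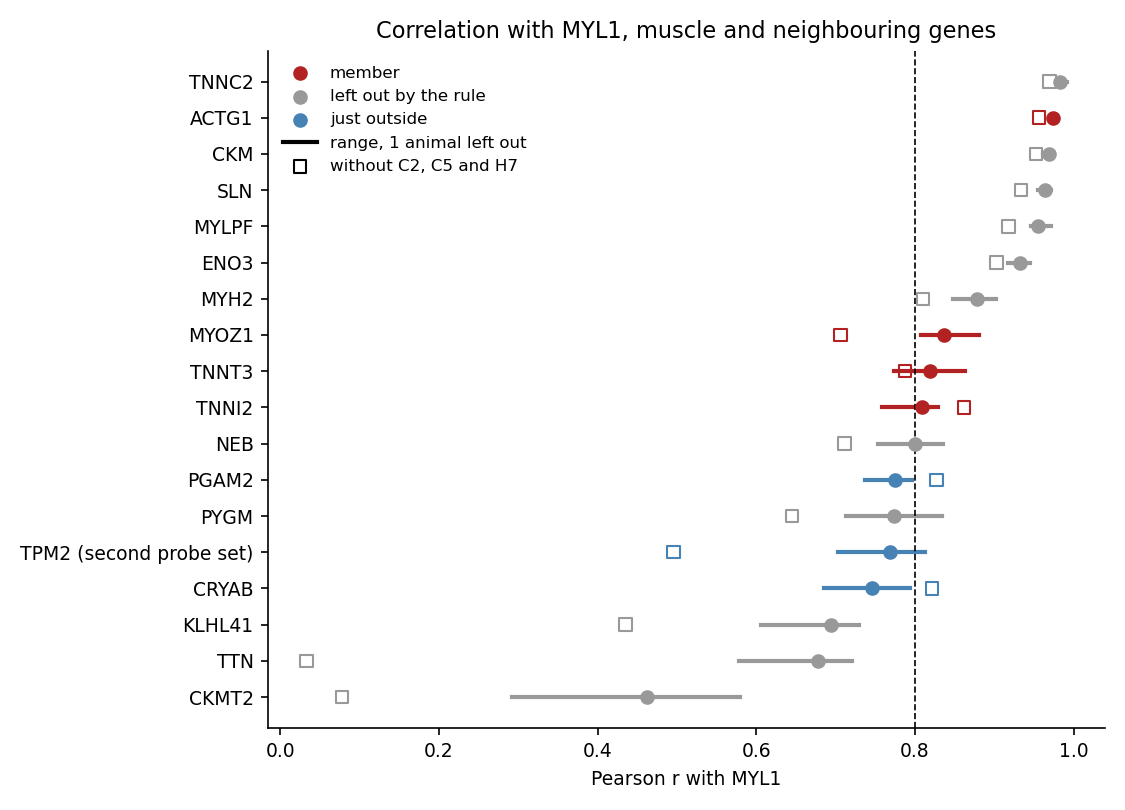
Pearson correlation with MYL1 (horizontal axis) for the 4 members (red), the 11 measured genes the rule leaves out other than MYL1 (grey) and the 3 probe sets just outside (blue), with the range over leaving out 1 animal (line) and the value without C2, C5 and H7 (open square). ACTG1 at 0.974 sits among the left-out genes of highest correlation, and the other 3 members lie just right of the dashed threshold at 0.80.

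By Pearson correlation over the 15 animals, TNNT3 and TNNI2 were closer to each other than either was to MYL1, with r = 0.975. This did not hold by Spearman's rho, at 0.867 for the pair against 0.904 for each with MYL1. Nor did it hold without control animals 2 and 5 and high-oleic animal 7. The pair then had r = 0.737, against 0.788 for TNNT3 and 0.862 for TNNI2 with MYL1. MYOZ1 gave r = 0.940 with TNNT3 and 0.918 with TNNI2. ACTG1 gave lower Pearson values with them, 0.845 with MYOZ1, 0.794 with TNNT3 and 0.791 with TNNI2. Its rho was 0.889, 0.921 and 0.861 in that order, and without the 3 animals its r was 0.774, 0.697 and 0.812. These pairs share animals and arrays and were brought together by the same rule, so they are a description. Within each diet the correlation with MYL1 was 0.997 in control and 0.986 in high-oleic animals for ACTG1. It was 0.928 and 0.747 for MYOZ1, 0.924 and 0.684 for TNNT3, and 0.846 and 0.768 for TNNI2.

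The member probe set of ACTG1 is 1 of 2 with that single symbol, and the other did not follow MYL1. The second probe set ran from 6.70 to 8.02 over the animals and correlated at -0.109 with MYL1 and at -0.022 with the member probe set. A probe set that carries ACTG1 beside a second symbol had r = 0.186 with MYL1. The identifier of the member ends in _s_at, which in the manufacturer's naming marks probes shared by several transcripts, and actin genes are very alike in sequence. ACTA1, the skeletal muscle actin, was not analysed here under that name. Which actin transcript the member probe set measured was not tested.

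By contrast, the 3 actin control probe sets of the manufacturer, named 3, M and 5 for the end, middle and start of the transcript, correlated at 0.974, 0.909 and 0.919 with MYL1. With the ACTG1 member they gave r = 0.993, 0.944 and 0.937. A probe set with no gene name also followed MYL1, at r = 0.954, and the ACTG1 member, at 0.971. The smooth muscle actins did not, with r = -0.099 for ACTA2 and -0.264 for the brighter probe set of ACTG2 against the ACTG1 member.

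**Figure D4:**
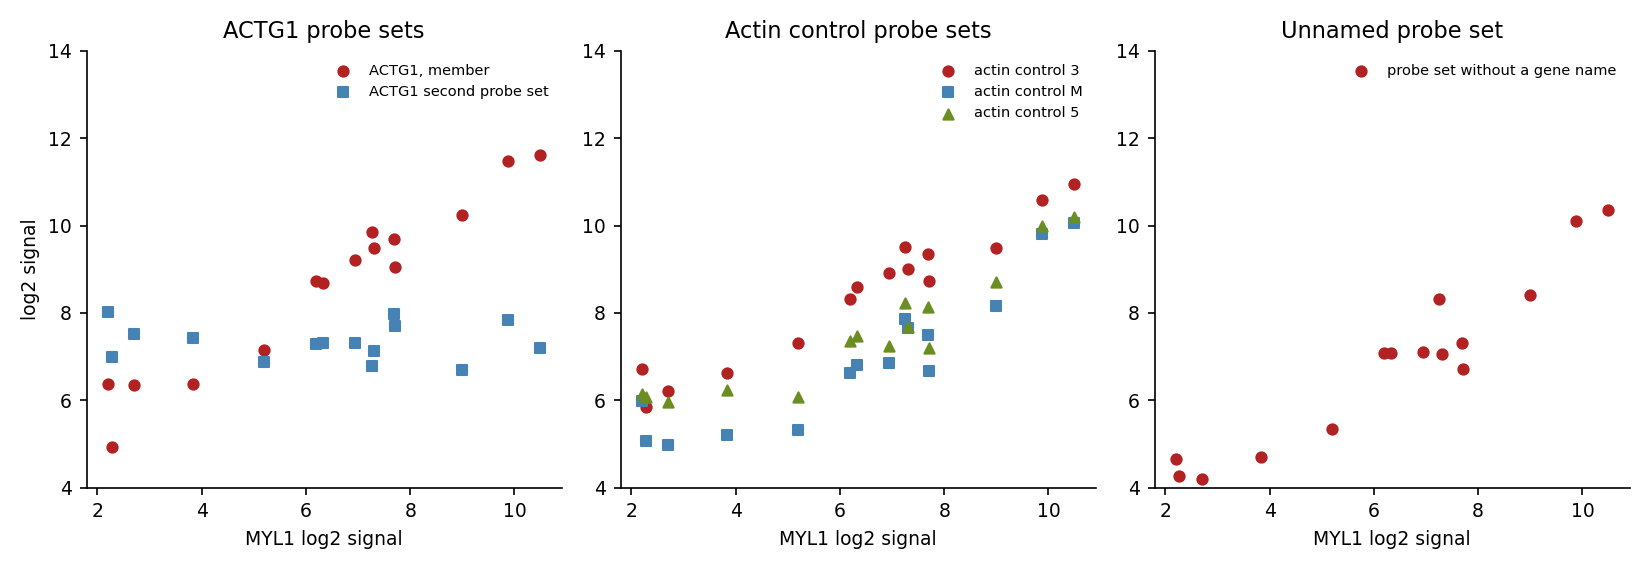
Log2 signal (vertical axis) against the MYL1 log2 signal (horizontal axis) in 15 animals for the 2 single-symbol ACTG1 probe sets, the 3 actin control probe sets and the unnamed probe set. The second ACTG1 probe set stays between 6.70 and 8.02 while the others rise with MYL1.

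By fibre type, 3 of the 4 members are in a list of 17 fast fibre genes, 0 in a list of 17 slow fibre genes, and ACTG1 in neither. Of the fast list 8 genes were measured, and all 8 reached a correlation of 0.80 with MYL1. This counts MYL1 itself and the 3 members, which were chosen for that correlation. The others were the left-out genes MYH2, MYLPF, TNNC2 and SLN. Of the slow list the table held PLN alone. PLN, or phospholamban, restrains the calcium pump of slow fibres, heart and smooth muscle, and had r = -0.511 with MYL1. With 1 slow gene measured the share of fast and slow fibre transcripts cannot be compared here.

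Other genes of the same structures were measured in part. Of the 19 listed thin filament genes 6 were in the table, with correlations of -0.14 to 0.98 with MYL1, the lowest for the brighter probe set of TPM2. Of 31 Z disc and cytoskeleton genes 10 were measured, and MYOZ1 was the only one at 0.80 or more. MYOT, or myotilin, had 0.713 and CMYA5 0.706, whereas DES, the intermediate filament protein desmin, which smooth muscle also makes, had -0.134. Of 22 thick filament and M band genes 4 were measured, at 0.68 to 1.00 with MYL1 included. Of 25 glycogen and glycolysis genes 5 were measured, with ENO3, the muscle enolase, at 0.933 and FBP2 at 0.082.

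Marker lists of cell types were set beside the members. Of 22 skeletal muscle markers 10 were measured, among them 3 members and MYL1 itself, and the other 9 correlated with MYL1 at 0.68 to 0.98. The lowest was TTN, the giant spring protein titin, at 0.677 with a Spearman's rho of 0.433, and at 0.033 without control animals 2 and 5 and high-oleic animal 7. Their summed signal on the log2 scale ran from 6.29 to 12.22 in control and from 6.68 to 11.83 in high-oleic animals. Of 13 smooth muscle markers 6 were measured, at -0.32 to -0.13, with a summed signal of 12.76 to 14.48 and of 12.55 to 13.45. The satellite cell list had 1 of 7 genes measured, CHRNA1 at -0.107, and the cardiac list had 0 of 8. Some markers of other cells also varied with MYL1. Of 15 adipocyte markers, LEP, the hormone leptin, had 0.561 and 0.660 for its 2 probe sets and PNPLA2 0.253. Of 10 lymphocyte markers 4 were measured, at -0.62 to -0.18 with a median of -0.45, the lowest being the T cell genes CD8A at -0.619 and CD3E at -0.527. Of 10 endothelial markers 4 were measured, at -0.53 for the growth factor receptor KDR to 0.37. The 5 fibroblast markers measured of 11 had 0.20 to 0.41, the 5 macrophage markers of 10 had -0.09 to 0.32, the 3 erythroid markers of 6 had 0.14 to 0.27, and MBP, 1 of 8 nerve markers, had 0.364. The part of any of these cell types in the results was not tested. In bulk tissue, fewer cells of a type and less RNA per cell cannot be told apart.

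Between diets no member differed beyond the spread among animals. The comparison asks whether expression in the fat differed between the diets, and the rule for members did not use diet. Control animals were also given more feed, which cannot be told apart from oleic acid enrichment here. Their mean live weight was 117.2 kg, against 109.2 kg on the high-oleic diet. TNNT3 was 3.40 ± 1.36 (SD, n = 8) on the high-oleic and 3.45 ± 1.64 (SD, n = 7) on the control diet. TNNI2 was 4.03 ± 1.30 and 4.25 ± 1.45, MYOZ1 3.64 ± 1.12 and 4.23 ± 1.55, and ACTG1 8.40 ± 2.12 and 8.86 ± 1.94, in the same order. The difference, high-oleic minus control, was -0.05 for TNNT3 (95% interval -1.39 to 1.28), -0.21 for TNNI2 (-1.44 to 1.02), -0.59 for MYOZ1 (-1.79 to 0.61) and -0.46 for ACTG1 (-2.24 to 1.33). The intervals are wide, and a 2-fold difference either way lies within those of TNNT3, TNNI2 and ACTG1.

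In limma with Benjamini-Hochberg adjustment over all 3255 probe sets tested, 0 of the 4 members passed an adjusted p of 0.05, where 0.00% of all probe sets did, and the adjusted p was 0.999 for each. Before adjustment, p was below 0.05 for 0 of 4 members and for 128 probe sets in all (3.93%). The exact permutation test over 6435 splits gave 0 probe sets after adjustment and 136 before it, and unadjusted p from 0.405 for MYOZ1 to 0.944 for TNNT3. All 4 differences were below 0, as were 53.2% of those of all probe sets, with a median of -0.33 against -0.03. The members correlate with each other, so these 4 signs are not independent. With live weight in the fit the differences turned to 0.75 for TNNT3, 0.56 for TNNI2, 0.06 for MYOZ1 and 0.39 for ACTG1. Without control animal 2 they were 0.45 for TNNT3 and 0.24 for TNNI2, 0.00234 for ACTG1 and -0.13 for MYOZ1.

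The same fit called no gene of the muscle lists. Of the 8 measured fast fibre genes 0 passed in either direction, and all 8 had a lower mean in high-oleic animals (median difference -0.37). The corresponding median was -0.39 for the 6 thin filament genes and -0.29 for the 10 Z disc genes, again with 0 past the threshold, beside -0.03 over all probe sets. The choice of lists with earlier results in view and the link of their members to MYL1 mean that these medians are a description.

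A further comparison asked whether a member differed between diets at a given MYL1 signal, by adding MYL1 to the fit. The difference was -0.54 for MYOZ1 (95% interval -1.25 to 0.18) and -0.36 for ACTG1 (-0.89 to 0.18). It was -0.16 for TNNI2 (-0.95 to 0.63) and 0.01 for TNNT3 (-0.83 to 0.84). In limma 0 of 4 members passed at an adjusted p of 0.05 (0.00% of 3254 probe sets), with adjusted p of 0.996 for MYOZ1, ACTG1 and TNNI2 and 0.999 for TNNT3. Before adjustment the count of members was also 0, against 125 probe sets (3.84%). All 4 intervals were narrower than without MYL1, which follows from the choice of members by their correlation with MYL1 and is no result. With MYL1 and its square in the fit, chosen after seeing the data, the differences were -0.36 for ACTG1, -0.31 for MYOZ1, 0.17 for TNNI2 and 0.34 for TNNT3.

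At fixed diet, the estimated slope on live weight was above 0 for all 4 members, and none passed the test. The slope per 10 kg was 1.06 on the log2 scale for ACTG1 (95% interval -0.62 to 2.73), 0.998 for TNNT3 (-0.22 to 2.22), 0.97 for TNNI2 (-0.14 to 2.08) and 0.81 for MYOZ1 (-0.30 to 1.92). In limma the adjusted p was 0.916 for each, and 0 of 4 members passed, as did 0.00% of the 3255 probe sets. Before adjustment 0 of 4 members had p below 0.05, against 124 probe sets (3.81%), and the slope was above 0 for 54.4% of all. Of the 3 animals that led the members, control animal 5 at 133 kg and high-oleic animal 7 at 116 kg were the heaviest of their diets. In contrast, control animal 2 at 112 kg was the lightest of its diet. Without high-oleic animal 7 the slopes were 0.54 for ACTG1, 0.42 for TNNT3, 0.44 for TNNI2 and 0.40 for MYOZ1, and 2 probe sets passed, 0 of them members. Without control animal 2 they were 1.59, 1.57, 1.49 and 1.32, and limma then placed 5 probe sets past the threshold, again 0 of them members. Without control animal 5 they were 1.501, 1.64, 1.35 and 0.97 in the same order. Without all 3 of these animals, chosen after seeing the data, they were 0.52, 0.65, 0.19 and 0.30. Of the 8 fast fibre genes measured, 0 passed in either direction in the fit of all animals, with a median slope of 1.44 per 10 kg against 0.04 over all probe sets. MYL1 itself had 1.76 (95% interval -0.40 to 3.92). The members and these genes correlate with MYL1, so their slopes and signs are not independent and the median is a description.

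**Figure D5:**
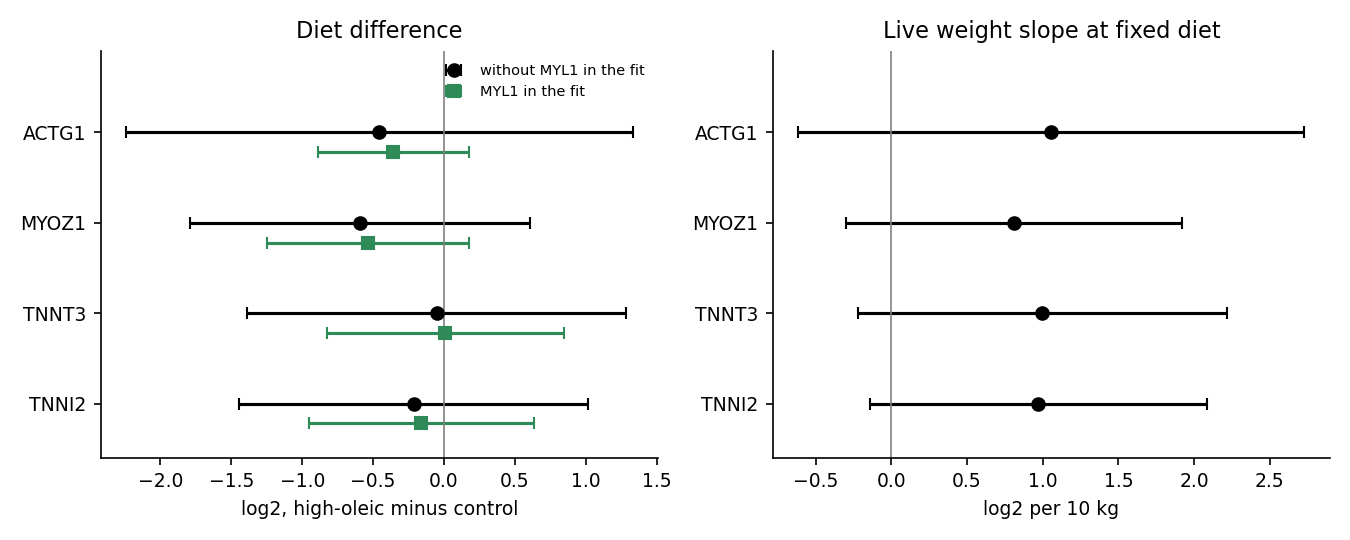
Estimates with 95% intervals for the 4 members: on the left the diet difference (log2, high-oleic minus control) without and with MYL1 in the fit, on the right the slope on live weight (log2 per 10 kg) at fixed diet. Every interval includes 0. The diet intervals narrow when MYL1 is in the fit, which follows from the choice of members by their correlation with MYL1.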

How the data were processed

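The authors deposited 1 table of log2 signals per probe set, 3272 probe sets by 15 arrays, with values of 1.49 to 14.36. GCOS and GCRMA are named per the submitters' processing notes, with no versions or settings. The log2 scale and lack of centring were read from the values. Control probe sets (17) were left out of tests. Of the other 3255, 1455 had 1 gene symbol in the platform table, 27 several and 1773 none, and all 4 members matched RefSeq gene IDs of Sscrofa11.1. The members and lists were chosen with earlier results of these data known.

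Diet, live weight at fixed diet, and diet with MYL1 as a covariate were fitted with limma 3.58.1 (lmFit, eBayes) in R 4.3.3 over all probe sets. Tests were two-sided, p-values were adjusted by Benjamini and Hochberg's method (Benjamini-Hochberg), and 0.05 was the threshold. MYL1 itself was left out of the last fit. The fits were tested on simulated data. Slopes on MYL1 are ordinary least squares. A list gene is represented by its probe set of highest mean. A list's summed signal is the log2 of the sum of its linear signals. The rule for named genes took all members. The number of arrays limits the precision. Alternatives were other scaling, a filter on dim probe sets, other variance models, an exact permutation test, means over probe sets, live weight as a covariate, the animal number as a block, other correlation rules and slopes, and leaving out animals. Figures used matplotlib 3.10.9.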

Additional observations from a re-analysis of the deposited data

Results flagged for a closer look

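High-oleic animal 7 stood far from the other 7 animals of its diet for the fast troponins. Its TNNT3 signal was 6.70, with the next animal at 3.27 and a median of 3.01 in the others. Its TNNI2 signal was 7.11, with the next animal at 4.13 and a median of 3.62 in the others. The gap took up a fraction of 0.801 of the group's range for TNNT3 and 0.762 for TNNI2. For MYOZ1 and ACTG1 the same animal was also the highest of its diet but not set apart in this way, and no control animal was. These were 8 checks. For unrelated values chance sets apart about 1 in 20, but that rate does not apply here. The members were chosen on the same values, and TNNI2 was not a member without high-oleic animal 7. TNNT3 and TNNI2 also correlated at 0.975, so their 2 flags are not separate.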

How the results depend on the processing

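Apart from leaving out single animals, 114 results under an alternative kept direction and threshold side or moved little, 14 moved and 9 reversed. The causes were not tested. Part of the 114 kept direction by construction, so their number overstates stability. The exact permutation test, the other variance models and the dim filter leave an estimated difference unchanged, as does a mean over probe sets for a gene with 1. No member passed the adjusted threshold of the 3 limma fits under any alternative run. Diet differences with live weight as a covariate turned to 0.39 (ACTG1), 0.057 (MYOZ1), 0.75 (TNNT3) and 0.56 (TNNI2). Without control animals 2 and 5 and high-oleic animal 7, chosen after seeing the data, they were 0.32 for TNNT3 and 0.15 for TNNI2. At fixed MYL1, TNNT3 was -0.014 after quantile normalization, and TNNI2 was 0.052 without the 3 animals and 0.17 with MYL1 and its square. Leaving out 1 animal at a time moved the diet difference from -0.90 to 0.041 for ACTG1, -0.94 to -0.13 for MYOZ1, -0.52 to 0.45 for TNNT3 and -0.65 to 0.24 for TNNI2. At fixed MYL1 the range was -0.29 to 0.25 for TNNT3 and -0.44 to 0.053 for TNNI2. Probe sets past the threshold for live weight ranged from 0 to 5.

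Members numbered 9 at r of 0.70 or more, 1 at 0.90 or more, 12 without the 3 animals and 3 to 5 without 1 animal. The slope on MYL1 by reduced major axis was 0.50 for MYOZ1, 0.55 for TNNT3 and 0.50 for TNNI2. By Theil-Sen it was 0.35 for TNNT3 and 0.31 for TNNI2. Without the 3 animals it was 0.21, 0.19 and 0.14 in the order of the first list, and without the 2 animals farthest from the median MYL1 signal 0.52, 0.59 and 0.53. A filter on mean log2 signal of 4 left out MYOZ1 and TNNT3. Another MYL1 probe set as anchor could not be run, as the table holds 1.

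With the animal number as a replicate block (animals 1 to 7 of each diet), the diet difference was -0.64 for ACTG1, -0.56 for MYOZ1, -0.03 for TNNT3 and -0.23 for TNNI2, with 0 probe sets past the threshold. Deviations of same-numbered animals correlated at -0.161 to 0.296, with 4 of 7 over 0.1, and 2 of 7 control animals were closest to their own number. The spread of such correlations over different-numbered animals was not computed. Whether same-numbered animals share more than a number was therefore not tested.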
